A study of Mus musculus with 14 samples.

Results

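A set of 10 genes of the Nodal and bone morphogenetic protein (BMP) pathways was followed through mouse embryonic stem cells, mouse embryonic fibroblasts, stem cells with Dppa5a knocked down, and RNA recovered with Dppa5a. They are the ligands Nodal, Gdf3 and Bmp4, the Nodal co-receptor Tdgf1, the secreted Nodal inhibitors Lefty1 and Lefty2, the intracellular inhibitor Smad7, and the BMP targets Id1, Id2 and Id3. They were taken by symbol from a list written with earlier results of these data known, and all 10 were found among 24421 gene symbols, each at 1 locus.

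Nodal and BMP ligands bind paired serine/threonine kinase receptors, and the receptors phosphorylate Smad proteins that enter the nucleus with Smad4. Nodal and Gdf3 need the co-receptor Tdgf1 (Cripto) and act through Smad2 and Smad3, whereas Bmp4 acts through Smad1, Smad5 and Smad9. In mouse embryonic stem cells, BMP signals induce Id genes, which help leukemia inhibitory factor to hold back differentiation. Nodal turns on its own inhibitors Lefty1 and Lefty2, and both pathways turn on Smad7, which blocks their receptors.

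RNA was sequenced in 14 libraries, 2 in each of 7 groups. mESC are untreated wild-type stem cells of a line made by the submitters, and MEF are wild-type embryonic fibroblasts grown with fetal bovine serum. KD_control are also labelled untreated wild-type stem cells of a line made by the submitters. Dppa5a_KD are untreated stem cells with a Dppa5a knockdown, whose method the labels do not give. Dppa5a, a gene of pluripotent cells, encodes a protein that binds RNA through a KH domain. All 3 groups of RNA immunoprecipitation (RIP) came from stem cells that overexpress 3Flag-Dppa5a: IgG_RIP used control IgG on untreated cells, Flag_RIP used a Flag antibody on untreated cells, and HU_Flag_RIP used the Flag antibody on cells treated with HU, which the labels do not spell out. Stem cells of every group were kept on inactivated fibroblast feeders with leukemia inhibitory factor and serum replacement, and were moved to gelatin before harvest. No labels say whether the 2 libraries of a group are separate cultures, so the spread behind each p-value is that between these libraries and may be technical. No input RNA libraries were analysed here, so a difference of Flag_RIP against IgG_RIP is one between antibodies. HU_Flag_RIP and IgG_RIP differ in both antibody and HU treatment, and no IgG library came from cells treated with HU. In that comparison the antibody and HU cannot be told apart. HU_Flag_RIP and Flag_RIP share the antibody and differ in HU. Where libraries of 2 groups are said not to overlap, the share of all genes without overlap was not counted. Such statements only describe the values.

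The RNA-seq tables give fragments per kilobase of transcript and per total of fragments (FPKM), which sum to 447684 to 585709 per library, with a depth of 18332625 to 25337449 effective fragments as estimated from the confidence bounds. The RIP tables give read counts that total 3472020 to 13033886 per library, of which 702016 to 1492111 lay outside 4 abundant transcripts (Rn45s, Rmrp, Rpph1 and Lars2). Dppa5a itself stood at 101 and 358 FPKM in Dppa5a_KD against 5126 and 5417 in KD_control. Its mESC values were 1485 and 1818 FPKM, and those of MEF 0 and 0.0871. The 8 stem cell markers summed to 2015 to 2853 FPKM in mESC, 2369 to 2420 in KD_control and 2313 to 3226 in Dppa5a_KD, and to 0.568 to 0.961 in MEF, where Pou5f1, Utf1, Tdh and Dppa4 were listed at 0. The 10 fibroblast markers summed to 6619 to 7477 FPKM in MEF and to 3.74 to 21.6 in the stem cell groups. The mESC libraries stood apart from each other: 13.3% of 11372 genes differed more than 2-fold between them, against 0.313% in KD_control, 1.25% in MEF and 3.76% in Dppa5a_KD. All 10 genes of interest were higher in mESC replicate 2 than in replicate 1, as were 57.1% of all genes, and Id3 (4.71-fold), Id1 (3.12-fold) and Nodal (2.12-fold) differed most.

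Positions are those of mm10. Nodal is at chr10:61417972-61425337, Gdf3 at chr6:122605403-122610071 and Bmp4 at chr14:46383520-46390599. Tdgf1 is at chr9:110939608-110946158. Lefty2 (chr1:180893119-180899102) and Lefty1 (chr1:180935039-180938401) are close paralogs 35936 bp apart, and how the authors' counting split reads that match both is not given, so their separate values are uncertain. Id1 is at chr2:152736251-152737410, Id2 at chr12:25093799-25096092 and Id3 at chr4:136143822-136145392. In RefSeq, Bmp4 overlaps Gm15217 and Gm15222, Lefty1 overlaps Gm39715, and Smad7 overlaps Gm41776. The strand used in counting is not given, so reads of these overlapping genes cannot be told apart, although Gm15217 itself was listed at no more than 0.382 FPKM.

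Of the 5 genes whose promoter sequences were used, the 250 bases upstream are shown for the 4 that differed between the 2 cell types. Nodal and Tdgf1 were listed at 0 in MEF, and Id2 and Id3 were high there. Promoter sequences from RefSeq (GRCm38.p6, the mm10 build) were used for 5 of the 10 genes, these 4 and Bmp4. The sequences read 5′ to 3′ on the strand of the gene and end at the base before its start, and capitals mark a motif. The Nodal window is chr10:61417722-61417971 on the plus strand, and the Tdgf1 window is chr9:110946159-110946408 on the minus strand. The Id2 window is chr12:25096093-25096342 on the minus strand, and the Id3 window is chr4:136143572-136143821 on the plus strand.
Nodal: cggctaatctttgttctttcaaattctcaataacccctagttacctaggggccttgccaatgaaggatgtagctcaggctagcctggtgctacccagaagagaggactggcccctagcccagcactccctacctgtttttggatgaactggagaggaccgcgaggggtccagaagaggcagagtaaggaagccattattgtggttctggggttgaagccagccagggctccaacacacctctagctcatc
Tdgf1: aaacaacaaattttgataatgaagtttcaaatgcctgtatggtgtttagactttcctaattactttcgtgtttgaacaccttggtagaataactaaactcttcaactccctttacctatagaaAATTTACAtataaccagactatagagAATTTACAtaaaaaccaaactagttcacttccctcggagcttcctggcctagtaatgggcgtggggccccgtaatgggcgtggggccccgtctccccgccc
Id2: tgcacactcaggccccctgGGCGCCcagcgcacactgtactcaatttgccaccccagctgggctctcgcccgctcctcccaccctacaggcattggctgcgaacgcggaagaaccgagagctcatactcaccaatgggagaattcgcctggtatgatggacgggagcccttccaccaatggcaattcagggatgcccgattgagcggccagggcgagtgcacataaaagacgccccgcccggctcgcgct
Id3: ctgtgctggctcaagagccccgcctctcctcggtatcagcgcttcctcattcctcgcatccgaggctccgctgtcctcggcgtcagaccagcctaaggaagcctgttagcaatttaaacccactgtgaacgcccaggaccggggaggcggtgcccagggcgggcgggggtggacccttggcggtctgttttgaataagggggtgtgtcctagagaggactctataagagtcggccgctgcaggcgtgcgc

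Both strands of each window were searched for GGCGCC (a GC-rich element of Smad1 and Smad5), GTCTAGAC (the palindrome of Smad3 and Smad4), CAGACA (a Smad element of the CAGA type) and AATNNACA (the element of the Nodal cofactor FoxH1). The Tdgf1 window held AATNNACA at 2 places, as AATTTACA, with first bases at -127 and -101 from the start. The Id2 window held GGCGCC once, at -231. No match to any of the 4 motifs was in the Nodal, Id3 or Bmp4 windows. Of 32851 RefSeq promoter windows of this length, 10.9% held AATNNACA, 9.59% GGCGCC, 17.1% CAGACA and 0.167% GTCTAGAC. The Tdgf1 window was 42% G and C, against 53.2% for Nodal, 62.8% for Id2 and Id3, 63.2% for Bmp4, and a median of 52.4% over all windows.

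Stem cells and fibroblasts differed in most of these genes. The Nodal side (Nodal, Gdf3, Tdgf1, Lefty1 and Lefty2) was higher in mESC, and the BMP targets Id2 and Id3 were higher in MEF. This comparison asks how the 2 cell types differ. Differences were tested with limma on log2(FPKM + 1), adjusted by the Benjamini-Hochberg method over all genes tested and called under 0.05, and they understate the change of genes at low levels. Of the 10 genes, 5 were called higher and 2 lower in mESC. Among all 12875 genes tested, 56.7% were called (30.6% higher, 26.1% lower), so a call is common in this comparison.

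Nodal, the ligand, had 12.3 and 26.0 FPKM in mESC and no value above 0 in either MEF library (adjusted p = 0.00051 by limma). Gdf3, a ligand of the same receptors, had 51.0 and 55.9 FPKM in mESC and was likewise at 0 in MEF (adjusted p = 5.9e-05 by limma). Tdgf1, the co-receptor, reached 312 and 418 FPKM in mESC and stayed at 0 in MEF (adjusted p = 5.2e-05 by limma). These 3 genes were thus present in every mESC library and not listed above 0 in either MEF library, and no fold change is given against 0. Per length of transcript, Tdgf1 was the most abundant of the 10 genes in mESC. Lefty2, a secreted inhibitor of Nodal, was at 10.6 and 14.7 FPKM in mESC and at 0 in MEF (adjusted p = 0.00017 by limma). Lefty1, its paralog, was at 8.76 and 15.9 FPKM in mESC and at 1.35 and 0.835 in MEF, a log2 difference of 2.63 (SE 0.32, adjusted p = 0.0017 by limma). The MEF values of Lefty1 rest on about 60 and 36 effective fragments, and the call was lost without MEF replicate 2 (adjusted p = 0.055).

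The BMP side was split. Bmp4 was at 25.7 and 42.8 FPKM in mESC and at 24.9 and 20.4 in MEF, and this log2 difference of 0.54 did not pass (95% confidence interval -0.22 to 1.30, adjusted p = 0.18 by limma). Its lowest mESC library was barely above its highest MEF library. Smad7 was at 12.2 and 23.3 FPKM in mESC and at 26.8 and 18.8 in MEF, and these libraries overlapped (log2 difference -0.39, 95% confidence interval -1.30 to 0.52, adjusted p = 0.40 by limma). Of the Id genes, which encode inhibitors of basic helix-loop-helix transcription factors, Id2 was at 3.53 and 3.68 FPKM in mESC and at 54.1 and 63.8 in MEF. Its log2 difference was -3.70 (SE 0.20, adjusted p = 0.00015 by limma). Id3 was at 3.10 and 14.6 FPKM in mESC and at 474 and 287 in MEF, a log2 difference of -5.53 (SE 0.66, adjusted p = 0.0016 by limma). Id3 was the most abundant of the 10 genes in MEF. Id1 was at 24.3 and 75.7 FPKM in mESC and at 140 and 90.3 in MEF, and it did not pass (log2 difference -1.37, SE 0.56, adjusted p = 0.088 by limma). The 2 mESC libraries decide that result for Id1: without mESC replicate 2 the log2 difference was -2.17 (adjusted p = 0.026), and without replicate 1 it was -0.56. With all 8 RNA-seq libraries in 1 fit, Id1 passed (adjusted p = 0.047). The macrophage list (6 markers) summed to 35.2 to 38.7 FPKM in MEF and 4.84 to 6.50 in mESC. Lyz2 made up most of the MEF sums (28.1 and 32.6 FPKM), with Csf1r, Ptprc and Adgre1 under 1 FPKM. Cd68 made up most of the mESC sums and was lower in MEF. The primitive endoderm list (6 markers) summed to 27.0 to 29.9 FPKM in MEF and 42.4 to 79.8 in mESC. Dab2 made up most of the MEF sums and overlapped between the 2 groups. The other genes of that list were lower in MEF, with Sox17 listed at 0. The part of these cell types in the differences above was not tested.

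The wider pathways were read from lists written with earlier results of these data known. Of 25 further genes of the Nodal and activin pathway, 22 were tested, with 7 called higher and 7 lower in mESC (median log2 difference -0.20, against 0.15 over all genes). Foxh1, the DNA-binding partner of Smad2, had 12.4 and 30.3 FPKM in mESC while MEF was listed at 0 (adjusted p = 0.00075 by limma). Inhba, an activin subunit, was listed at 0 in mESC and was at 86.7 and 63.0 FPKM in MEF (adjusted p = 7.0e-05 by limma). Fst, which binds and blocks activin, was lower in mESC (log2 difference -5.30, SE 0.19, adjusted p = 6.6e-05 by limma), as was Pmepa1, which holds back Smad2 and Smad3, with a log2 difference of -2.40. Of 29 BMP genes, 26 were tested, with 3 higher and 19 lower in mESC (median -1.45). The lower genes included the secreted BMP antagonists Grem1 (0 and 0.0188 FPKM in mESC against 107 and 107 in MEF) and Nbl1 (log2 difference -5.17), and the receptor Acvr1 (-2.81). Of the 15 TGF-beta genes in the tables, all 15 were tested, with 1 higher and 13 lower in mESC (median -3.84). They included the ligands Tgfb3 (-6.37) and Tgfb2 (-3.94), Ltbp2, which encodes a matrix protein of the latent TGF-beta binding family (-5.80), and the matricellular gene Ctgf (-5.65).

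**Figure D1:**
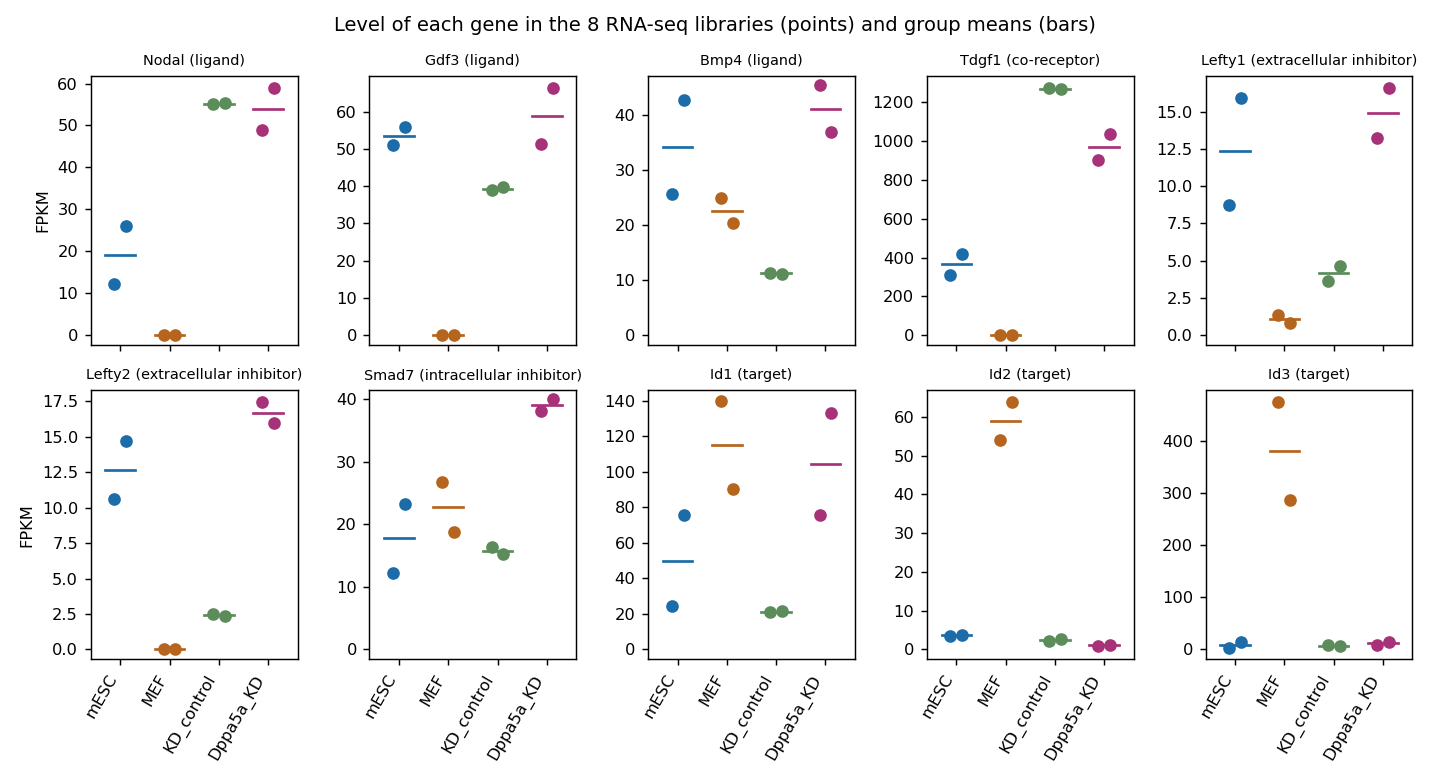
Level of each of the 10 genes in the 8 RNA-seq libraries, in FPKM on a linear axis that differs between panels; points are libraries and bars are means of 2 libraries. Nodal, Gdf3, Tdgf1 and Lefty2 lie at 0 in MEF, Id2 and Id3 are highest in MEF, and Lefty2 and Smad7 are highest in Dppa5a_KD.

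Lefty2, Lefty1, Smad7, Bmp4, Id1 and Gdf3 rose in Dppa5a_KD against KD_control, and Id2 fell. This comparison asks what changes in stem cells when Dppa5a is reduced. Of the 10 genes, 6 were called higher and 1 lower. Of all 12345 genes tested, 37.4% were called, 13.6% higher and 23.8% lower. The median log2 difference was 0.91 over the 10 genes and -0.11 over all genes. The balance of calls over all genes moved with the scaling, from 1678 higher and 2940 lower to 2088 higher and 2412 lower under median-ratio scaling.

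**Figure D2:**
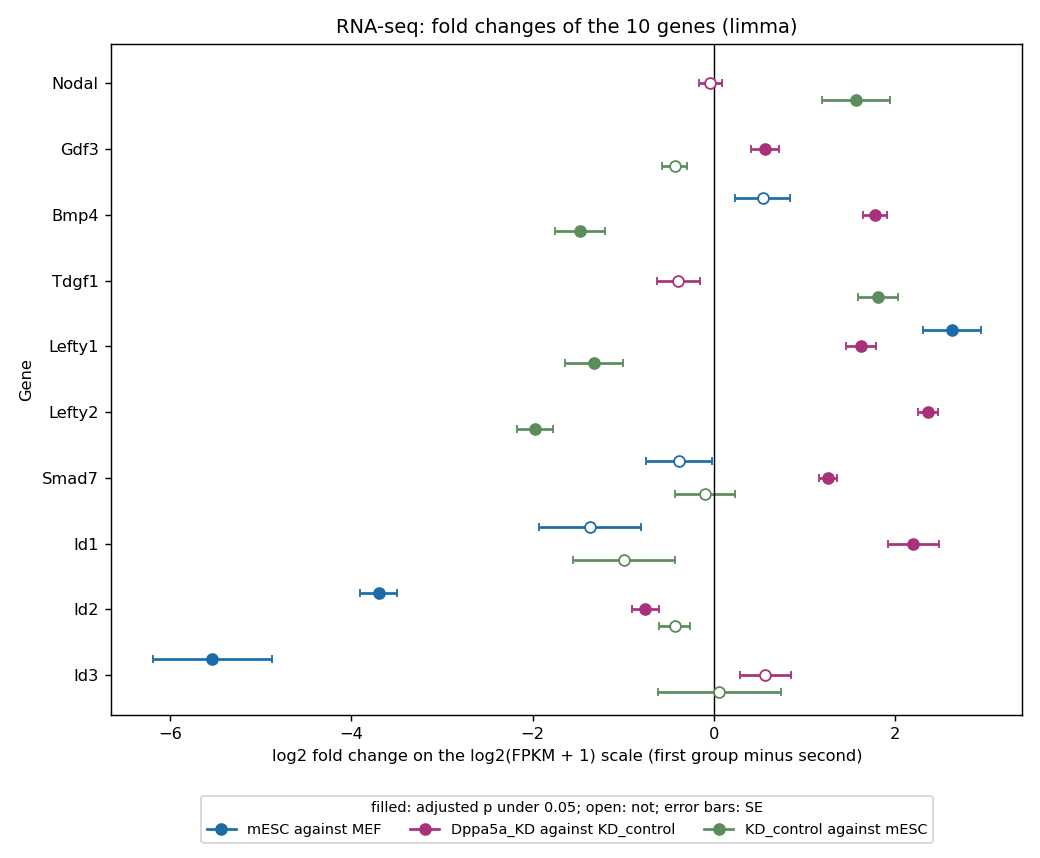
Log2 differences of FPKM + 1 with standard errors for the 3 RNA-seq comparisons, filled where the adjusted p was under 0.05 by limma; comparisons against a group listed at 0 are left out. Bmp4, Lefty1 and Lefty2 lie to the right of 0 for Dppa5a_KD against KD_control and to the left of 0 for KD_control against mESC, 2 comparisons that share the KD_control libraries.

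Lefty2 went from 2.51 and 2.37 FPKM in KD_control to 17.4 and 16.0 in Dppa5a_KD, a log2 difference of 2.36 (SE 0.11, adjusted p = 0.0060 by limma). Lefty1 went from 3.65 and 4.67 FPKM to 13.2 and 16.6, a log2 difference of 1.62 (SE 0.17, adjusted p = 0.0063 by limma). For both inhibitors every Dppa5a_KD library was above every KD_control library. Smad7 (chr18:75367365-75395934), the inhibitor inside the cell, went from 16.3 and 15.2 FPKM to 38.0 and 40.0, a log2 difference of 1.25 (SE 0.10, adjusted p = 0.0060 by limma). Lefty1, Lefty2 and Smad7 were thus all called higher in Dppa5a_KD.

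Among the ligands, Bmp4 went from 11.3 and 11.2 FPKM in KD_control to 45.5 and 37.0 in Dppa5a_KD, a log2 difference of 1.78 (SE 0.13, adjusted p = 0.0060 by limma). Gdf3 went from 38.9 and 39.6 FPKM to 51.3 and 66.3, a smaller log2 difference of 0.56 (SE 0.15, adjusted p = 0.045 by limma). The Gdf3 call was lost without either KD_control library (adjusted p = 0.27 without replicate 1 and 0.24 without replicate 2), with no filter on low values (0.070) and with a filter of 5 FPKM (0.053). Nodal was at 55.0 and 55.3 FPKM in KD_control and at 49.0 and 58.9 in Dppa5a_KD. Its KD_control values lie between the 2 Dppa5a_KD values, and its log2 difference of -0.04 had a 95% confidence interval of -0.38 to 0.30 (adjusted p = 0.83 by limma). The sign of that difference for Nodal turned with the scaling, to 0.06 under median-ratio scaling and 0.10 with FPKM brought to a common sum. Tdgf1 was at 1273 and 1267 FPKM in KD_control and at 902 and 1037 in Dppa5a_KD. Both Tdgf1 values were lower in Dppa5a_KD, but the difference did not pass (log2 difference -0.39, 95% confidence interval -1.02 to 0.23, adjusted p = 0.25 by limma). Without Dppa5a_KD replicate 1 or 2, the Tdgf1 difference was -0.29 or -0.49 and passed, with the spread then taken from the 2 close KD_control libraries. In the same way Nodal passed without Dppa5a_KD replicate 2 (-0.17, adjusted p = 0.0099).

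The 3 Id genes did not move together. Id1 went from 20.8 and 21.5 FPKM in KD_control to 75.9 and 133 in Dppa5a_KD, a log2 difference of 2.20 (SE 0.28, adjusted p = 0.0083 by limma). Id2 went from 2.05 and 2.81 FPKM to 0.952 and 1.08, a log2 difference of -0.76 (SE 0.15, adjusted p = 0.019 by limma). The Dppa5a_KD values of Id2 rest on about 30 and 34 effective fragments, and the call was lost without KD_control replicate 2 (adjusted p = 0.063). Id3 was at 8.14 and 6.62 FPKM in KD_control and at 8.48 and 15.2 in Dppa5a_KD, and it did not pass (log2 difference 0.57, 95% confidence interval -0.16 to 1.30, adjusted p = 0.17 by limma). Without Dppa5a_KD replicate 1, Id3 passed (0.95, adjusted p = 0.00054). Id1 thus rose while Id2 fell from an already low level.

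Calls for Bmp4, Lefty1, Lefty2, Smad7 and Id1 were kept in all 12 alternative settings, with log2 differences of 1.63 to 1.92, 1.47 to 1.82, 2.30 to 2.73, 1.21 to 1.39 and 1.80 to 2.6. The summed levels of all 5 lists of markers of other cell types lay apart between KD_control and Dppa5a_KD. The primitive endoderm list (6 genes) went from 21.8 to 22.8 FPKM in KD_control to 10.1 to 11.6 in Dppa5a_KD. The trophectoderm list (6 genes) went from 56.2 to 58.5 to 33.4 to 36.0, with Elf5 at 0 in 1 Dppa5a_KD library. Its members did not move together: Krt8, Krt18 and Tfap2c were lower in Dppa5a_KD, and Eomes, which is in this list too, was higher. The mesoderm and primitive streak list (5 genes) went from 6.66 to 6.69 FPKM to 10.5 to 12.1, of which Eomes, also in the Nodal and activin list, made up 5.12 and 4.91 in KD_control and 10.7 and 9.64 in Dppa5a_KD. The other 4 genes of that list were under 1 FPKM in all 4 libraries, with Gsc at 0 in 1 Dppa5a_KD library. The macrophage list (6 genes) went from 10.4 to 10.7 FPKM to 15.9 to 19.6, of which Cd68 made up 9.97 and 9.83 and then 15.0 and 18.4, with Adgre1 at 0 in all 4 libraries. The fibroblast list (10 genes) went from 20.5 to 21.6 FPKM to 9.15 to 9.35, with Postn and Dcn at 0 in all 4 libraries. Most of these sums came from Pdgfrb (7.89 and 7.60, then 2.81 and 2.32), Thy1 (7.27 and 8.23, then 3.21 and 3.65) and Twist1 (4.43 and 4.80, then 2.64 and 2.91). Col1a1 was at 0.775 and 0.771 FPKM in KD_control and 0.487 and 0.405 in Dppa5a_KD, against 2894 and 2226 in MEF. The part of these cell types in the changes above was not tested. In bulk samples, fewer cells of a type and less RNA per cell cannot be told apart.

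Of the further Nodal and activin genes, 20 were tested in the knockdown comparison, with 4 higher and 3 lower (median log2 difference -0.04). Inhbb, an activin subunit, went from 13.2 and 12.9 FPKM to 59.8 and 61.2, a log2 difference of 2.13 (SE 0.09, adjusted p = 0.0060 by limma). Eomes, a T-box factor induced by Nodal in the embryo, rose by 0.89 on the log2 scale, and Pcsk6, a protease that processes Nodal, rose by 0.64. Fstl3, a binder of activin, fell by 1.78 on the log2 scale, from 5.14 and 4.20 FPKM to 0.528 and 0.771. Of the BMP genes, 20 were tested, with 0 higher (0 also at an unadjusted p under 0.05 by limma) and 8 lower (median -0.32), so Bmp4 and Id1 rose while none of the other tested BMP genes was called higher. The lower genes included the targets Msx2 (log2 difference -1.27) and Hey1 (-0.77), the ligand Bmp7 (-0.89) and the inhibitor Smad6 (-0.59). Of the TGF-beta genes, 11 were tested, with 3 higher and 3 lower (median 0.25). Ltbp3 (-1.41), Ctgf (-1.23) and the co-receptor Tgfbr3 (-0.60) fell, and Ltbp4 rose by 0.52 on the log2 scale. All the lower genes named in this paragraph also had both mESC values below both KD_control values. Fstl3 had 0.223 and 0.947 FPKM in mESC, and Ltbp3 had 0.137 and 0.456 against 7.26 and 6.96 in KD_control. Inhbb, which rose, had 13.3 and 14.1 FPKM in mESC, near its KD_control values.

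The 2 wild-type stem cell groups, KD_control and mESC, were themselves compared to see how far the levels of these genes differ without a knockdown. They are not shown to be the same line: Eif2s3y, on the Y chromosome, had 43.2 and 41.2 FPKM in mESC but 0 in KD_control and Dppa5a_KD. Nodal and Tdgf1 were higher in KD_control, and Bmp4, Lefty1 and Lefty2 were lower. These are 2 called higher and 3 called lower of 10, beside 41.4% of 12595 genes called (26.5% higher, 15.0% lower). Over all genes the balance was 3336 higher and 1884 lower, and 2733 higher and 2344 lower under median-ratio scaling.

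Nodal was at 55.0 and 55.3 FPKM in KD_control and at 12.3 and 26.0 in mESC, a log2 difference of 1.57 (SE 0.37, adjusted p = 0.035 by limma). Tdgf1 was at 1273 and 1267 FPKM and at 312 and 418, a log2 difference of 1.81 (SE 0.22, adjusted p = 0.0098 by limma). The ligand and its co-receptor were therefore both called higher in KD_control. Lefty2 was lower by 1.97 on the log2 scale (SE 0.20, adjusted p = 0.0084 by limma), Bmp4 by 1.48 (SE 0.28, adjusted p = 0.021) and Lefty1 by 1.32 (SE 0.32, adjusted p = 0.035). Gdf3 (log2 difference -0.43, adjusted p = 0.067), Smad7 (-0.10, adjusted p = 0.82), Id1 (-0.99, adjusted p = 0.22), Id2 (-0.43, adjusted p = 0.11) and Id3 (0.06, adjusted p = 0.95) were not called by limma. Calls here hung on single libraries. Without KD_control replicate 1 those for Tdgf1 (adjusted p = 0.051) and Lefty1 (0.13) were lost, and without KD_control replicate 2 those for Nodal (0.053), Bmp4 (0.056), Tdgf1 (0.057) and Lefty1 (0.071) were lost. With no filter on low values, Nodal (0.059) and Lefty1 (0.062) were lost, and Gdf3 passed under the 3 other scalings (0.026 to 0.0375). Without 1 of the mESC libraries, the spread was taken from the KD_control libraries, and the direction of Smad7 and Id3 turned with the library left out. The log2 difference of Smad7 was -0.53 without mESC replicate 1 and 0.34 without replicate 2. That of Id3 was -0.90 and 1.02. The primitive endoderm list summed to 21.8 to 22.8 FPKM in KD_control and 42.4 to 79.8 in mESC. The trophectoderm list lay the other way, at 56.2 to 58.5 against 20.5 to 52.6 FPKM, as did the fibroblast list (20.5 to 21.6 against 3.74 to 8.74) and the macrophage list (10.4 to 10.7 against 4.84 to 6.50). Within the trophectoderm list, Krt18 and Tfap2c were higher in KD_control. Krt8 (13.8 and 15.4 against 4.89 and 24.2 FPKM) and Eomes (5.12 and 4.91 against 2.02 and 5.61) overlapped. Pdgfrb, Thy1 and Twist1 made up most of the fibroblast sums in KD_control. Col1a2, Postn and Acta2 were lower there than in mESC and under 1 FPKM in both groups. Cd68 made up most of the macrophage sums. The 8 stem cell markers went both ways. Zfp42 had 34.3 and 36.6 FPKM in KD_control against 406 and 502 in mESC, and Tdh and Dppa4 were also lower in KD_control. Nanog had 360 and 356 FPKM in KD_control against 240 and 246 in mESC, and Esrrb and Pou5f1 were also higher in KD_control. Sox2 and Utf1 overlapped between the 2 groups. The part of these differences was not tested. Of the pathway lists, 3 of 21 tested Nodal and activin genes were higher and 1 lower, 7 of 20 BMP genes were higher and 2 lower, and 3 of 12 TGF-beta genes were higher and 2 lower. The Nodal and activin genes were Fstl3 (log2 difference 1.87), Smad3 (0.74), Tgif1 (0.52) and Pmepa1 (-0.65). The BMP genes included Nbl1 (1.75), Acvr1 (1.13), Hey1 (1.21) and Bmper (-1.32). The TGF-beta genes included Ltbp3 (2.66), Ltbp1 (1.29), Tgfbr3 (0.67) and Ski (-0.61).

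The comparison of KD_control with mESC and that of Dppa5a_KD with KD_control share the KD_control libraries, so their values are set side by side only. The levels order as follows. Lefty2 and Lefty1 were at 17.4, 16.0, 13.2 and 16.6 FPKM in Dppa5a_KD and at 10.6, 14.7, 8.76 and 15.9 in mESC. Lefty1 overlapped between these groups, and Lefty2 did not. Bmp4 overlapped between Dppa5a_KD and mESC and was lowest in KD_control, below MEF. Gdf3 also overlapped between Dppa5a_KD and mESC, above KD_control. Tdgf1 fell in the order KD_control, Dppa5a_KD, mESC and MEF without overlap, and Id2 in the order MEF, mESC, KD_control and Dppa5a_KD without overlap. Smad7 was highest in Dppa5a_KD, and its mESC values overlapped those of MEF and KD_control, with MEF above KD_control. Id1 overlapped between MEF and Dppa5a_KD at the top, followed by mESC and then KD_control. Id3 was highest in MEF, and its mESC values overlapped those of Dppa5a_KD and KD_control, which lay apart from each other.

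Genes with a pattern close to that of a member over the 8 RNA-seq libraries were found by Pearson's r of log2(FPKM + 1) among 7895 genes with at least 10 FPKM in at least 2 libraries. The 8 points share 4 groups, so r mainly describes the group means. For Nodal they were Sult4a1 (r = 0.999), Wdr92 (0.999) and Scamp5 (0.999), and for Lefty1 they were Rmnd5b (0.993), the stem cell transcription factor Foxd3 (0.991) and Rpl7l1 (0.991). For Bmp4 they were Thrap3 (0.981), Utp3 (0.974) and Alyref (0.959), and for Id1 they were Cdc42se1 (0.972), Homer3 (0.970) and Skiv2l (0.970). Sult4a1 had 56.6 and 55.7 FPKM in KD_control and 46.3 and 54.0 in Dppa5a_KD, with 14.3 and 27.6 in mESC and only 0.940 and 0.579 in MEF. Foxd3 had 5.0 and 4.03 FPKM in KD_control and 18.2 and 22.7 in Dppa5a_KD, with 9.32 and 23.3 in mESC and only 0.931 and 0.823 in MEF.

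In the RIP libraries, none of these transcripts was called higher with the Flag antibody, and 3 were lower. Bmp4, Smad7 and Id1 were lower in Flag_RIP than in IgG_RIP, and Bmp4 and Smad7 were also lower in HU_Flag_RIP. These comparisons ask which RNAs are recovered with Dppa5a, with and without HU. Counts were tested with edgeR's quasi-likelihood test and are given as CPM, the count scaled to a common library size, after TMM scaling, which corrects for differences in composition between libraries. Id3 was too low to test (1 and 3 counts in IgG_RIP, 39 and 9 in Flag_RIP, 8 and 1 in HU_Flag_RIP), which leaves 9 of 10 genes. In Flag_RIP against IgG_RIP 0 were higher and 3 lower, beside 2.32% of 10473 genes called (1.16% higher, 1.16% lower). In HU_Flag_RIP against IgG_RIP 0 were higher and 2 lower, beside 2.86% called (1.44% higher, 1.42% lower). DESeq2 also called 0 higher, and 3 and 2 lower. At an unadjusted p under 0.05 by edgeR, 1 of the 9 genes was higher in each comparison (Lefty1), beside 3 lower in Flag_RIP and 4 lower in HU_Flag_RIP (Bmp4, Smad7 and Id1 in both, Lefty2 in HU_Flag_RIP). Over all genes, 1607 and 1788 of 10473 passed that unadjusted threshold in either direction.

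The split over all genes hung on the scaling. With TMM, 121 genes were higher and 122 lower in Flag_RIP, and with library size alone 64 were higher and 2214 lower, with a median log2 difference over all genes of -0.87. For HU_Flag_RIP against IgG_RIP, 151 were higher and 149 lower with TMM, and 92 higher and 2617 lower with library size alone (median -0.88). The TMM factors were 1.45 and 1.60 in IgG_RIP and 0.782 to 0.846 in the 4 Flag libraries. With library size alone, Id1 (adjusted p = 0.0028), Tdgf1 (0.013) and Lefty2 (0.028) also passed as lower in HU_Flag_RIP by edgeR.

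Bmp4, the ligand, had 67 and 118 counts in IgG_RIP against 25 and 12 in Flag_RIP and 15 and 11 in HU_Flag_RIP. On the CPM scale these were 13.3 and 20.0, 2.43 and 1.5, and 1.99 and 1.81. Every Bmp4 value with the Flag antibody was below both IgG values. The log2 fold change of Bmp4 was -3.06 in Flag_RIP (SE 0.53, adjusted p = 0.0030 by edgeR) and -3.12 in HU_Flag_RIP (SE 0.54, adjusted p = 0.0029). Both calls for Bmp4 were lost without IgG_RIP replicate 2 (adjusted p = 0.11 and 0.091).

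Smad7, the inhibitor, had 528 and 713 counts in IgG_RIP against 335 and 241 in Flag_RIP and 248 and 146 in HU_Flag_RIP. On the CPM scale these were 105 and 121, 32.6 and 30.1, and 32.9 and 24.0, again with no overlap between IgG and Flag libraries. Its log2 fold change was -1.85 in Flag_RIP (SE 0.29, adjusted p = 0.0017 by edgeR) and -1.99 in HU_Flag_RIP (SE 0.30, adjusted p = 0.0010). Without IgG_RIP replicate 1 or 2 the Flag_RIP call for Smad7 was lost (adjusted p = 0.055 and 0.081), and without replicate 2 the HU_Flag_RIP call was lost (0.055). Id1, the target, had 50 and 75 counts in IgG_RIP against 36 and 17 in Flag_RIP and 33 and 25 in HU_Flag_RIP, or 9.96 and 12.7, 3.50 and 2.12, and 4.38 and 4.11 CPM. Its log2 fold change was -1.99 in Flag_RIP (SE 0.52, adjusted p = 0.048 by edgeR) and -1.41 in HU_Flag_RIP, where it did not pass (SE 0.51, adjusted p = 0.15). The Flag_RIP call for Id1 was lost without any single library of the 2 groups (adjusted p = 0.083 to 0.26).

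**Figure D3:**
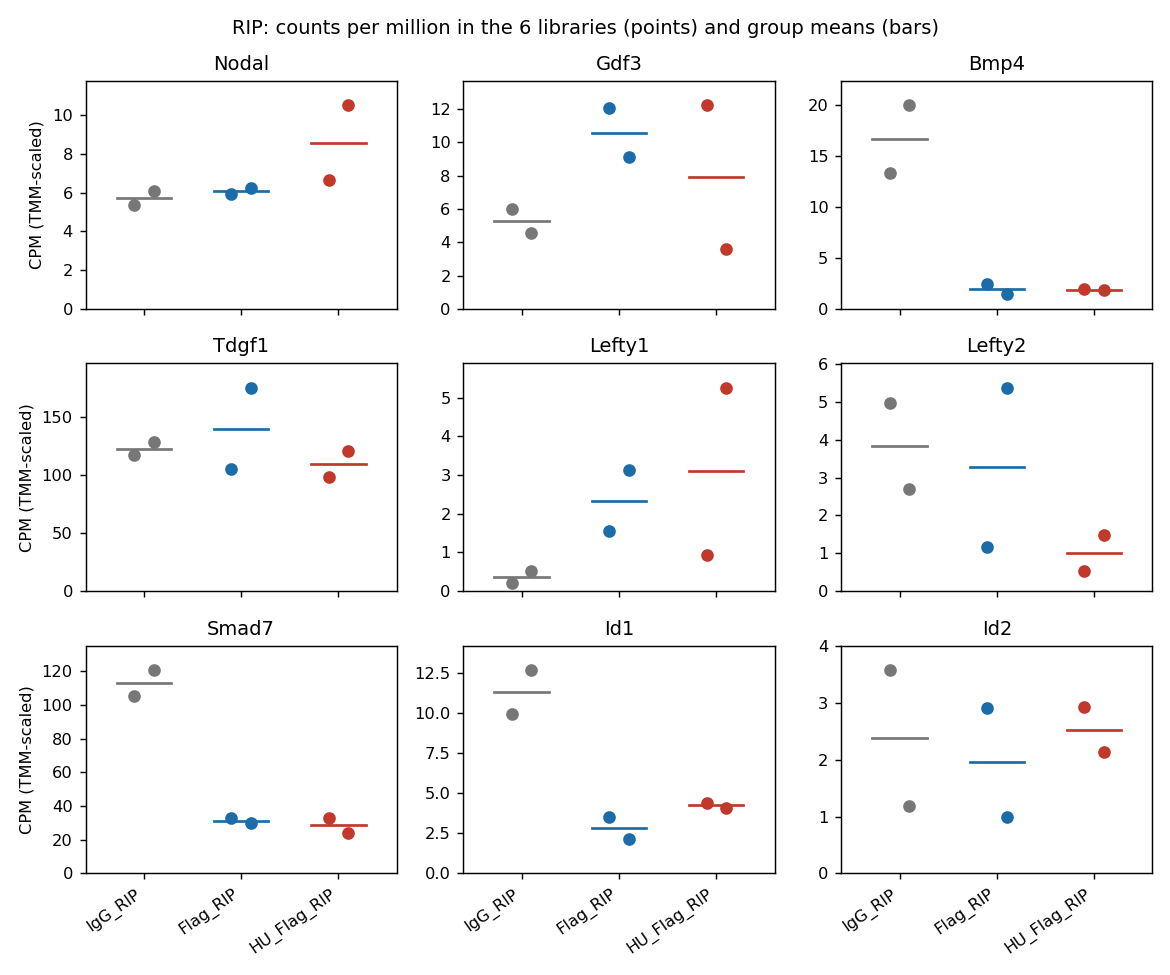
TMM-scaled CPM of the 9 tested genes in the 6 RIP libraries, on linear axes that start at 0 and differ between panels; points are libraries and bars are means of 2 libraries. Bmp4, Smad7 and Id1 lie lower in all 4 Flag libraries than in both IgG libraries, and Tdgf1 lies between 97.9 and 175 in all 6.

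The Nodal side was not called. Nodal had 27 and 36 counts in IgG_RIP against 61 and 50 in Flag_RIP and 50 and 64 in HU_Flag_RIP, or 5.38 and 6.09, 5.93 and 6.25, and 6.64 and 10.5 CPM. Its log2 fold change was 0.08 in Flag_RIP (adjusted p = 0.96 by edgeR) and 0.57 in HU_Flag_RIP (adjusted p = 0.61), and with library size alone these were -0.81 and -0.34. Nodal levels with the Flag antibody thus lay above or below those with IgG according to the scaling. Tdgf1, with 588 to 1401 counts the deepest of the 9 genes, was at 117 and 128 CPM in IgG_RIP against 105 and 175 in Flag_RIP and 97.9 and 121 in HU_Flag_RIP. Its log2 fold change was 0.19 (SE 0.28, adjusted p = 0.83 by edgeR) and -0.17 (SE 0.28, adjusted p = 0.83), so no difference was detected for the co-receptor with TMM. With library size alone, Tdgf1 was at -0.70 and -1.09. Gdf3 had 30 and 27 counts in IgG_RIP against 124 and 73 in Flag_RIP and 92 and 22 in HU_Flag_RIP. Its log2 fold change of 1.01 in Flag_RIP did not pass (adjusted p = 0.38 by edgeR).

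The inhibitors of Nodal were read from few counts. Lefty1 had 1 and 3 counts in IgG_RIP against 16 and 25 in Flag_RIP and 7 and 32 in HU_Flag_RIP. Its values did not overlap with IgG in either comparison, but its log2 fold changes of 2.63 (SE 1.14, adjusted p = 0.26 by edgeR) and 3.02 (adjusted p = 0.16) did not pass. Lefty2 had 25 and 16 counts in IgG_RIP against 12 and 43 in Flag_RIP and 4 and 9 in HU_Flag_RIP. Its log2 fold changes of -0.24 (adjusted p = 0.94 by edgeR) and -1.94 (adjusted p = 0.28) did not pass, and the paralogs may share reads. Id2 had 18 and 7, 30 and 8, and 22 and 13 counts, with log2 fold changes of -0.25 and 0.10 (adjusted p = 0.94 and 0.97 by edgeR).

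HU_Flag_RIP did not differ from Flag_RIP for any of the 9 genes by the test used. None was called by edgeR or DESeq2 and none had an unadjusted p under 0.05, beside 0.611% of all genes called (0.143% higher, 0.468% lower). The lowest unadjusted p was that of Lefty2 (0.072, log2 fold change -1.70, SE 0.89). For Bmp4 the log2 fold change was -0.06 (SE 0.56), and for Smad7 it was -0.14 (SE 0.29).

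**Figure D4:**
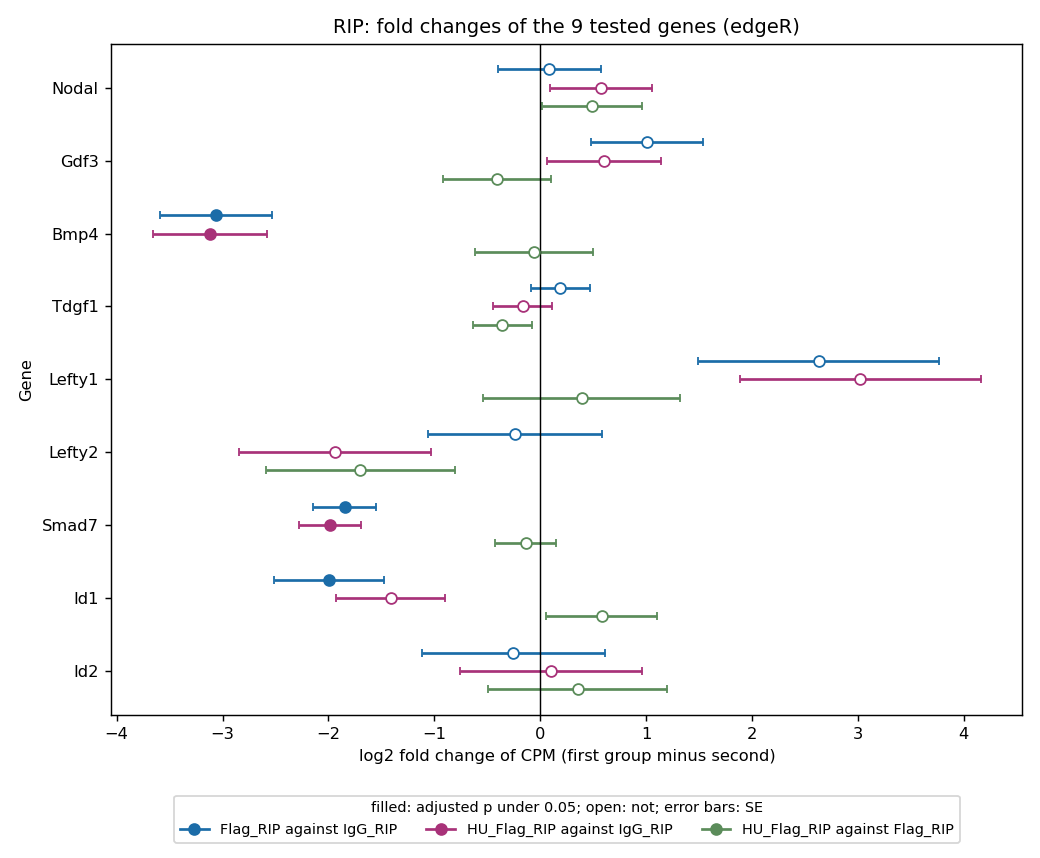
Log2 fold changes of CPM with standard errors for the 3 RIP comparisons and the 9 tested genes, filled where the adjusted p was under 0.05 by edgeR. Bmp4, Smad7 and Id1 in Flag_RIP and Bmp4 and Smad7 in HU_Flag_RIP are filled, all left of 0, and no point of HU_Flag_RIP against Flag_RIP is filled.

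Of the further genes, 17 of the Nodal and activin list, 11 of the BMP list and 10 of the TGF-beta list were tested in RIP. Inhbb was lower with the Flag antibody, at 47.2 and 40.0 CPM in IgG_RIP against 13.5 and 13.0 in Flag_RIP and 11.8 and 15.4 in HU_Flag_RIP. Its log2 fold changes were -1.71 (SE 0.33, adjusted p = 0.0083 by edgeR) and -1.68 (SE 0.34, adjusted p = 0.0089). Eomes was lower too, at 10.6 and 7.79 CPM in IgG_RIP and 0.486 to 1.06 in the 4 Flag libraries, with log2 fold changes of -3.74 (adjusted p = 0.0083 by edgeR) and -3.25 (adjusted p = 0.017). Eng, a TGF-beta co-receptor, was the 1 gene of these lists called higher, in HU_Flag_RIP against IgG_RIP (9.96 and 10.0 against 1.99 and 1.86 CPM, log2 fold change 2.37, SE 0.57, adjusted p = 0.027 by edgeR). In Flag_RIP, without HU, Eng was at 3.11 and 3.75 CPM and was not called against IgG_RIP. The antibody and HU cannot be told apart in its HU_Flag_RIP call. No gene of the BMP list was called in any RIP comparison by edgeR or DESeq2, with 2 of 11 higher in Flag_RIP and 3 of 11 higher in HU_Flag_RIP against IgG_RIP at an unadjusted p under 0.05. Between HU_Flag_RIP and Flag_RIP neither tool called a gene of the 3 lists, and 1 TGF-beta gene was higher at an unadjusted p under 0.05 by edgeR.

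The stem cell gene Pou5f1 had 748 to 1541 counts in the 6 RIP libraries, and the fibroblast collagen Col1a1 had 0 or 1. Dppa5a itself had 232 and 252 CPM with IgG, 170 and 160 with the Flag antibody, and 114 in both libraries with that antibody after HU.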

How the data were processed

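Of the 7 groups, 4 hold RNA-seq and 3 hold RIP libraries. The authors deposited FPKM per gene locus with confidence bounds in FPKM, per the file headers, and counts per gene symbol for RIP, as the whole numbers in the deposited tables show. The submitters' processing notes list mm10 as the build and HTSeq 0.6.1, Cuffdiff 2.1.1, Cufflinks 2.1.1, TopHat2 2.0.8 and CASAVA 2.19 as tools, with no role for any of them. Strandedness is not given in these sources.

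FPKM were summed over the loci of a symbol (24346 symbols at 24883 loci), and 1 symbol marked as failed was left out, as were 27 rows of the count tables whose names read as dates. FPKM are not counts, so they were tested with limma 3.58.1 (limma-trend) on log2(FPKM + 1), where either group averaged 1 FPKM or more, with only the 2 groups compared in the fit. Counts were tested with edgeR 4.0.16 (quasi-likelihood, TMM, filterByExpr, all 6 RIP libraries in 1 fit) in R 4.3.3. DESeq2 1.42.0 served as an alternative for counts. The Benjamini-Hochberg method adjusted p-values over all genes tested, and calls are those under 0.05. Effective fragments were estimated from the deposited confidence bounds. Such bounds, and the counts, cover counting error only. CPM are counts scaled by edgeR to the TMM-corrected library size. Both fits were tested on simulated data, in which 200 genes above a low level were changed per comparison and noise followed the fitted spread. In the measured RNA-seq comparisons 37.4% to 56.7% of genes were called. The simulated shares depend on how many genes change, so they need not hold for the measured data. Of 2-fold changes, limma recovered 39% for mESC against MEF, 91% for the knockdown and 18% for KD_control against mESC. Of 4-fold changes it recovered 100%, 99% and 97%, and 10.9%, 5.94% and 4.96% of its calls were false. In the 3 RIP comparisons edgeR recovered 71% to 79% of 4-fold changes, with 2.27% to 4.05% of calls false.

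The 10 genes, the pathway and marker lists and the alternatives were chosen with earlier results of these data known. All 10 genes are named in each comparison, and of each list up to 4 called genes with the smallest p. The result of 1 gene so chosen is not reported here. The 3 genes nearest in pattern were taken for Nodal, Lefty1, Bmp4 and Id1, passing over predicted genes. Promoter sequences are from RefSeq (GRCm38.p6), 250 bases upstream. Plots were made in Python 3.11.15 with matplotlib 3.10.9. The alternatives were other scalings, other filters and pseudocounts, fits on more or fewer groups, a replicate block, and leaving out each library in turn.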

Additional observations from a re-analysis of the deposited data

How the results depend on the processing

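With 2 libraries a group, a fit that leaves a library out has 1 library on that side, which is assumed to vary like the others. Of 734 alternative log2 differences of the 10 genes, 657 kept their direction and their side of the threshold, 23 lost a call, 23 gained one and 31 changed sign, the last for genes not called as reported. Of 156 alternative counts of calls, 119 stayed within 1.5 times the reported count and 37 did not. The cause of these changes was not tested.

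The number of genes called for Dppa5a_KD against KD_control was 4618, and it was 2916 with FPKM brought to a common sum, 3056 with the 10 most abundant genes left out of the sum, 3023 with a mean of at least 5 FPKM and 2992 with all 8 libraries in 1 fit. For KD_control against mESC, 5 of the 10 genes were called and 3 with no filter. For Flag_RIP against IgG_RIP, 243 genes became 2278 with library size alone and 433 with no filter. For HU_Flag_RIP against IgG_RIP, 300 genes became 2709 with library size alone and 532 with no filter, and the members called went from 2 to 5 with library size alone. For HU_Flag_RIP against Flag_RIP, 64 became 41 with only the 2 groups in the fit.

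Leaving out 1 library at a time, the members called ranged from 6 to 8 for mESC against MEF, 5 to 9 for the knockdown, 1 to 10 for KD_control against mESC, 0 to 3 for Flag_RIP and 0 to 2 for HU_Flag_RIP against IgG_RIP, and were 0 throughout for HU_Flag_RIP against Flag_RIP. The genes called ranged, in the same order, from 2835 to 7056, 2415 to 9436, 1865 to 10895, 30 to 389, 23 to 512 and 44 to 71.

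The replicate numbers are only names. Deviations of same-numbered libraries correlated across genes at -0.55 for mESC and MEF, 0.01 for the knockdown, 0.06 for KD_control and mESC, -0.02 and -0.03 for the Flag groups and IgG_RIP, and 0.38 for the 2 Flag groups. With a replicate block, 6408 genes were called for mESC against MEF, 5296 for the knockdown, 5928 for KD_control against mESC, 508 for Flag_RIP and 617 for HU_Flag_RIP against IgG_RIP, and 86 for HU_Flag_RIP against Flag_RIP. Of the 10 genes the block called 8, 8, 6, 3, 2 and 0 in the same order, and it added Id1 for mESC against MEF (adjusted p = 0.0067 by limma), Id3 for the knockdown (0.025) and Id1 for KD_control against mESC (0.0093).

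Signs that changed were those of log2 differences not called as reported, although 2 passed once changed, Smad7 (0.34) and Id3 (-0.90) for KD_control against mESC without 1 mESC library. Under another scaling, Nodal in the knockdown was 0.10 with a common sum, 0.065 with median-ratio scaling and 0.081 with the 10 most abundant genes left out, and Id3 in KD_control against mESC was -0.090, -0.10 and -0.075. With library size alone, Nodal was -0.81 and Tdgf1 -0.70 in Flag_RIP against IgG_RIP, and Nodal was -0.34, Gdf3 -0.33 and Id2 -0.79 in HU_Flag_RIP against IgG_RIP. Leaving out 1 library at a time, Smad7 ranged from -0.83 to 0.051 for mESC against MEF, and Nodal from -0.17 to 0.092 for the knockdown. For KD_control against mESC, Smad7 ranged from -0.53 to 0.34 and Id3 from -0.90 to 1.02. For Flag_RIP against IgG_RIP, Tdgf1 ranged from -0.20 to 0.52, Lefty2 from -1.68 to 0.49 and Id2 from -1.22 to 0.76. For HU_Flag_RIP against IgG_RIP, Gdf3 ranged from -0.54 to 1.22 and Id2 from -0.50 to 1.10. For HU_Flag_RIP against Flag_RIP, Gdf3 ranged from -1.56 to 0.20, Bmp4 from -0.36 to 0.34, Tdgf1 from -0.68 to 0.045, Lefty1 from -1.31 to 1.16, Smad7 from -0.40 to 0.066 and Id2 from -0.21 to 1.33.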
